A study of Homo sapiens with 4 samples.

Results

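The genes described here are integrin subunits, laminin chains and adhesive glycoproteins of the extracellular matrix, in Huh7 cells, an established human hepatocellular carcinoma line. The members were 36 gene symbols chosen by name, of which 35 had a probe among the 19090 genes that the arrays read. LAMA3 was not analysed here. Expression was measured on 4 single-colour (Cy5) microarrays, and 2 groups were compared. The scramble group (n = 2 arrays) was Huh7 cells that stably carried a scramble short hairpin RNA (shRNA). The shACOT12 group (n = 2 arrays) was Huh7 cells that stably carried an shRNA directed at ACOT12, the gene of a cytosolic acetyl-CoA thioesterase. Both groups had been selected in puromycin for 1 week, and neither received a further treatment. The number of shRNA sequences and of clones behind each group was not given in the sources used here, nor whether replicate arrays stemmed from separate cultures, so p-values cover only the spread between samples, and that spread may be technical. The purpose stated for the series was to find genes downstream of ACOT12.

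Integrins are receptors that join an alpha and a beta subunit at the cell surface and connect the matrix outside the cell to the actin cytoskeleton within. Laminins are trimers of an alpha, a beta and a gamma chain that form the sheet of basement membranes. Nidogens, perlecan and agrin link this sheet to collagen IV and to cells. Fibronectin, osteopontin and the thrombospondins are secreted glycoproteins to which integrins bind. Hepatocytes are the main source of plasma fibronectin, and the sinusoids of normal liver lack a continuous basement membrane.

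The median intensity of the arrays was between 327 and 451. All 7 hepatocyte markers with a probe (ALB, AFP, APOA1, APOB, TTR, SERPINA1 and TF) were bright. On each array, at least 91.7% of the probes lay at or below each of them. For 5 of these 7 (71.4%) the groups did not overlap, 2 with higher and 3 with lower values in shACOT12 cells, beside 21.5% of all genes. AFP was lower in shACOT12 cells (log2 fold change -0.78, limma unadjusted p = 0.0267) and ALB higher (0.49, limma unadjusted p = 0.112). Of the 7, 0 passed an adjusted p of 0.05 by limma. Of 7 markers of fibroblasts or stellate cells, 1 (COL1A1) reached the median of all genes, and the mean log2 level of this list was 6.61 to 6.88 on the shACOT12 arrays and 6.81 to 6.96 on the scramble arrays. None of 4 endothelial markers reached it. Of 4 blood cell markers, CD14 and LYZ did, with at least 89.9% and 93.6% of probes at or below them, and PTPRC and CD68 did not. Of 4 bile duct markers, KRT19, EPCAM and SOX9 did, with at least 74.5% of probes at or below each, and KRT7 did not. All 4 arrays were labelled as the Huh7 line, so these markers describe RNA of that line. Admixture of other cells was not tested. The single probe of the targeted gene ACOT12 (PH_hs_0025727) gave log2 intensities of 8.28 and 7.47 in scramble and 7.58 and 7.37 in shACOT12 cells, in the order of replicates 1 and 2, which is kept throughout. The groups overlapped, and a lower level of ACOT12 was not detected (log2 fold change -0.40, SE 0.35, limma adjusted p = 1).

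None of the 35 genes passed an adjusted p of 0.05 in the limma fit across all genes, a threshold that 0.00524% of all genes passed, and the adjusted p was 1 for each. In bulk RNA, fewer cells that express a gene and less of its RNA per cell cannot be told apart. Fold changes are given as shACOT12 minus scramble on the log2 scale throughout. By this measure 19 members were above 0 and 16 below, with a median of 0.08, beside a median of 0.01 over all genes and 51.4% of all genes above 0. The groups did not overlap for 13 members (37.1%), 7 with higher and 6 with lower values in shACOT12 cells, beside 21.5% of all genes. The smallest two-sided p open to an exact permutation test of 2 against 2 arrays was 0.333. The difference was larger than the SD of both groups for 11 of the 35 members, beside 21.0% of all genes. For 18 of the 35 the 95% confidence interval lay within a 2-fold difference either way, beside 59.7% of all genes. For 34 of the 35 the interval held 0, MFAP4 being the exception.

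At an unadjusted p under 0.05 limma gave 1 member, MFAP4, with lower values in shACOT12 cells, beside 1.76% of all genes in either direction and 0.775% in that one. The count of members was 2 without scramble replicate 1 or without scramble replicate 2, 4 without shACOT12 replicate 1 and 1 without shACOT12 replicate 2. Leaving out each array in turn kept the sign of 14 members (40%), beside 32.5% of all genes.

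**Figure D1:**
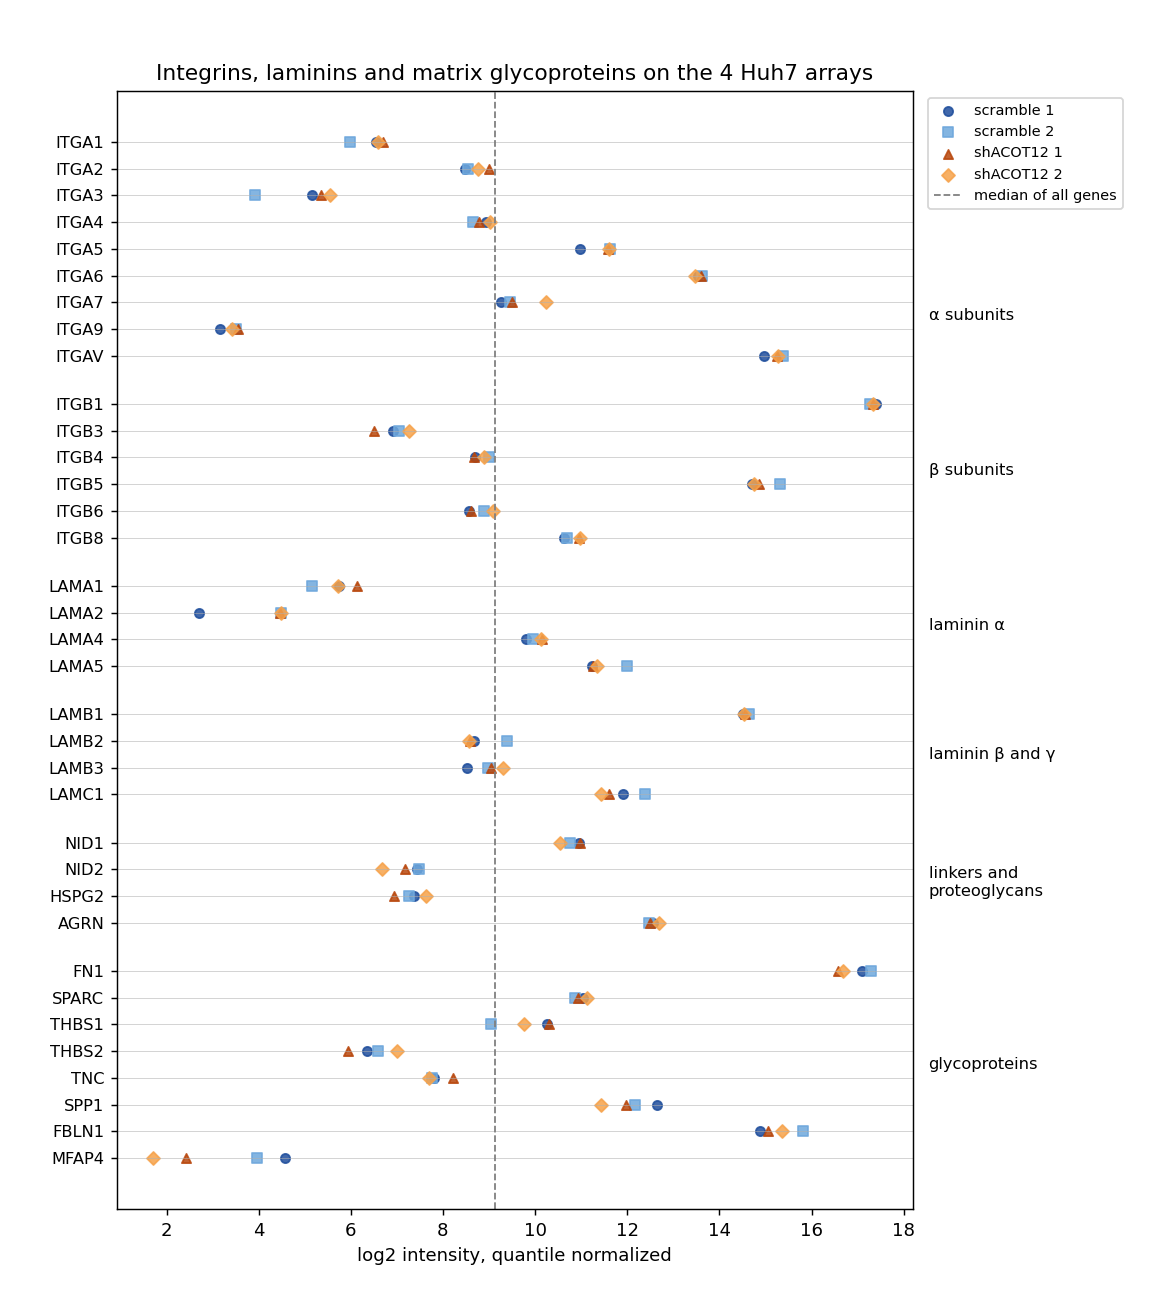
Log2 intensity after quantile normalization (horizontal axis) of the 35 genes with a probe, by role (rows), 1 point per array; the dashed line is the median of all genes. The points of the 4 arrays lie close together for most genes, and MFAP4 at the bottom of the scale has the widest gap between the groups, 4.57 and 3.96 in scramble against 2.43 and 1.71 in shACOT12 cells.

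The alpha subunits determine most of the ligand choice of an integrin. Of the 9 measured, 0 passed the threshold; 8 had values above 0 and 1 below, with a median log2 fold change of 0.29. For 4 of them the groups did not overlap (ITGA1, ITGA2, ITGA3 and ITGA7), all with higher values in shACOT12 cells, a direction in which the groups did not overlap for 11.5% of all genes. That count holds after quantile normalization. In the deposited intensities the groups of ITGA1, ITGA3 and ITGA7 overlapped, and those of ITGA2 did not. ITGA7, a laminin receptor subunit known from muscle, had the largest difference among the alpha subunits at or above the median of all genes. It read 9.27 and 9.45 in scramble and 9.50 and 10.24 in shACOT12 cells. Only shACOT12 replicate 2 stood clearly apart, and the log2 fold change was 0.51 (SE 0.34, 95% confidence interval -0.30 to 1.32, limma unadjusted p = 0.178); without that array it was 0.15.

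ITGA5, which pairs with ITGB1 as the classical fibronectin receptor, read 10.97 and 11.63 in scramble and 11.58 and 11.61 in shACOT12 cells. Scramble replicate 1 was the low array, the other 3 were alike, and the groups overlapped (log2 fold change 0.29, SE 0.32, unadjusted p = 0.404 by limma). Without scramble replicate 1 the fold change of ITGA5 was -0.04. ITGAV, the shared partner of ITGB1, ITGB3, ITGB5, ITGB6 and ITGB8 in receptors for vitronectin and latent TGF-beta, read 14.97 and 15.38 in scramble and 15.25 and 15.26 in shACOT12 cells. ITGA6, a laminin receptor subunit that pairs with ITGB1 or ITGB4, read 13.54 and 13.61 in scramble and 13.60 and 13.47 in shACOT12 cells. Both genes were bright, with at least 89.2% of probes at or below them on each array, and their scramble and shACOT12 values overlapped, with log2 fold changes of 0.08 (95% confidence interval -0.61 to 0.78) and -0.04 (-0.69 to 0.61).

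The collagen receptor subunits ITGA1 and ITGA2 had log2 fold changes of 0.38 and 0.37, both from probes below the median of all genes. ITGA2 read 8.47 and 8.55 in scramble and 9.002 and 8.75 in shACOT12 cells, and its fold change was 0.24 to 0.51 with each array left out. ITGA1 read 6.56 and 5.98 in scramble and 6.70 and 6.59 in shACOT12 cells, with its groups separated by 0.03 only; its fold change was 0.089 without scramble replicate 2 and 0.68 without scramble replicate 1. ITGA3, another laminin receptor subunit, had the largest fold change of the alpha subunits, 0.91 (SE 0.43, limma unadjusted p = 0.0756), but its probe was dim. On no array did more than 11.9% of probes lie at or below it, and scramble replicate 2 at 3.92 was far below scramble replicate 1 at 5.15 and the shACOT12 arrays at 5.36 and 5.54. Without scramble replicate 2 its fold change was 0.30. ITGA4, which binds fibronectin and VCAM1, and ITGA9, a receptor subunit for tenascin and osteopontin, stood at 0.10 and 0.14 with overlapping groups; for ITGA9 at most 1.96% of probes lay at or below it, and its fold change turned to -0.11 without scaling between arrays, -0.08 after scaling to the 75th percentile and -0.28 after cyclic loess.

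Most beta subunits carry a tail that binds talin and kindlin inside the cell. Of the 6 measured, 0 passed the threshold, 3 had values above 0 and 3 below, and the median log2 fold change was -0.03. ITGB1, the partner of most alpha subunits, had at least 99.3% of probes at or below it on each array and read 17.41 and 17.27 in scramble and 17.34 and 17.34 in shACOT12 cells. Its log2 fold change was 0.00 with a 95% confidence interval from -0.65 to 0.65, so the interval excludes a 2-fold difference in either direction. A dimmer second probe of ITGB1 gave -0.10.

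ITGB8, which with ITGAV binds latent TGF-beta, was the only beta subunit of 6 whose groups did not overlap (16.7%), beside 21.5% of all genes. It read 10.63 and 10.68 in scramble and 10.95 and 10.97 in shACOT12 cells. The replicates of each group were close to each other, with an SD of 0.04 in scramble and 0.01 in shACOT12 cells, and the log2 fold change was 0.31 (SE 0.27, 95% confidence interval -0.34 to 0.95, unadjusted p = 0.292 by limma, whose SE is drawn towards the spread of all genes). A second probe of ITGB8, at a mean of 5.91, gave -0.27, and the mean of both probes gave 0.02. Under the other settings with all arrays, the unadjusted p of ITGB8 by limma depended on the setting. It ran from 0.00507 with a floor at the 20th percentile to 0.95 with the mean of probes. ITGB5, a vitronectin receptor subunit, read 14.70 and 15.32 in scramble and 14.86 and 14.74 in shACOT12 cells. Scramble replicate 2 was the high array, the groups overlapped, and the log2 fold change of -0.21 (SE 0.32, limma unadjusted p = 0.531) became 0.09 without it. ITGB3, a subunit of the platelet fibrinogen receptor, ITGB4, the hemidesmosome subunit, and ITGB6, an epithelial activator of TGF-beta, were below the median of all genes, at -0.10, -0.06 and 0.11 with overlapping groups.

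Of the 8 laminin chains measured, 0 passed the threshold, with 4 log2 fold changes above 0 and 4 below. The alpha chains carry the domains that cells bind. LAMA5, the alpha chain of most adult epithelial basement membranes, read 11.24 and 11.996 in scramble and 11.25 and 11.34 in shACOT12 cells. As for ITGB5, scramble replicate 2 was the high array and the groups overlapped (log2 fold change -0.32, SE 0.34, unadjusted p = 0.375 by limma; 0.06 without that array). LAMA4, the alpha chain known from vessel walls, read 9.80 and 9.94 in scramble and 10.15 and 10.12 in shACOT12 cells. Its groups did not overlap. The log2 fold change was 0.26 (SE 0.27, 95% confidence interval -0.385 to 0.915, limma unadjusted p = 0.364). The dimmer probes of LAMA4 gave -0.01 and -0.02. Under the other settings with all arrays, its unadjusted p by limma ran from 0.0426 with that raised floor to 0.769 with the mean of probes. LAMA1, the embryonic alpha chain, and LAMA2, the alpha chain of muscle basement membrane, stood at 0.47 and 0.88, from dim probes with at most 19.0% and 4.43% of probes at or below them. Without 1 array the fold change of LAMA1 was 0.17 to 0.78. LAMA2 read 2.70 on scramble replicate 1 and 4.47 to 4.48 on the other 3 arrays, and without that array its fold change was -0.01. Its deposited intensities were 14.7 and 17.4 in scramble and 13.5 and 38.0 in shACOT12 cells. Scramble replicate 1 was thus the lowest array for LAMA2 only after normalization, at the bottom of the scale.

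LAMC1 encodes the gamma chain found in most laminins. It read 11.91 and 12.39 in scramble and 11.60 and 11.43 in shACOT12 cells. Both shACOT12 values lay below both scramble values, by 0.31 at the nearest, and the means were 12.15 ± 0.34 and 11.52 ± 0.12 (SD, n = 2 each). The log2 fold change was -0.63 (SE 0.30, 95% confidence interval -1.36 to 0.09, unadjusted p = 0.0763 and adjusted p = 1 by limma), and it ranged from -0.87 to -0.40 with each array left out in turn. LAMB1, the beta chain that pairs with it in many tissues, read 14.52 and 14.65 in scramble and 14.57 and 14.54 in shACOT12 cells. The groups overlapped, with a log2 fold change of -0.04 (SE 0.27, 95% confidence interval -0.68 to 0.61). LAMB2, the beta chain of the kidney filter and the neuromuscular junction, had lower values in shACOT12 cells, with 8.68 and 9.39 in scramble against 8.59 and 8.57 (log2 fold change -0.46). Scramble replicate 2 was the high array, and without it the fold change of LAMB2 was -0.097. LAMB3, an epithelial chain of the skin's anchoring laminin, had higher ones, with 8.51 and 8.98 in scramble against 9.04 and 9.31 (log2 fold change 0.43, and 0.20 to 0.65 with each array left out). Neither group pair overlapped, but the nearest values were 0.09 apart for LAMB2 and 0.06 for LAMB3. In the deposited intensities, before normalization, the groups of both genes overlapped.

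Of the 4 nidogens and heparan sulfate proteoglycans, 0 passed the threshold, and the median log2 fold change was -0.07. NID1, which bridges laminin and collagen IV, read 10.95 and 10.76 in scramble and 10.98 and 10.54 in shACOT12 cells. AGRN, the proteoglycan agrin, read 12.56 and 12.46 in scramble and 12.50 and 12.69 in shACOT12 cells. The groups of NID1 and of AGRN overlapped, with log2 fold changes of -0.10 (SE 0.30) and 0.08 (SE 0.28). NID2, the second nidogen, was dimmer and its groups did not overlap. It read 7.43 and 7.48 in scramble and 7.17 and 6.68 in shACOT12 cells, with a log2 fold change of -0.53 (SE 0.30, limma unadjusted p = 0.122) that ranged from -0.76 to -0.30 with each array left out. HSPG2, which encodes perlecan, read 7.37 and 7.27 in scramble and 6.94 and 7.63 in shACOT12 cells, with the shACOT12 arrays on either side of the scramble arrays.

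**Figure D2:**
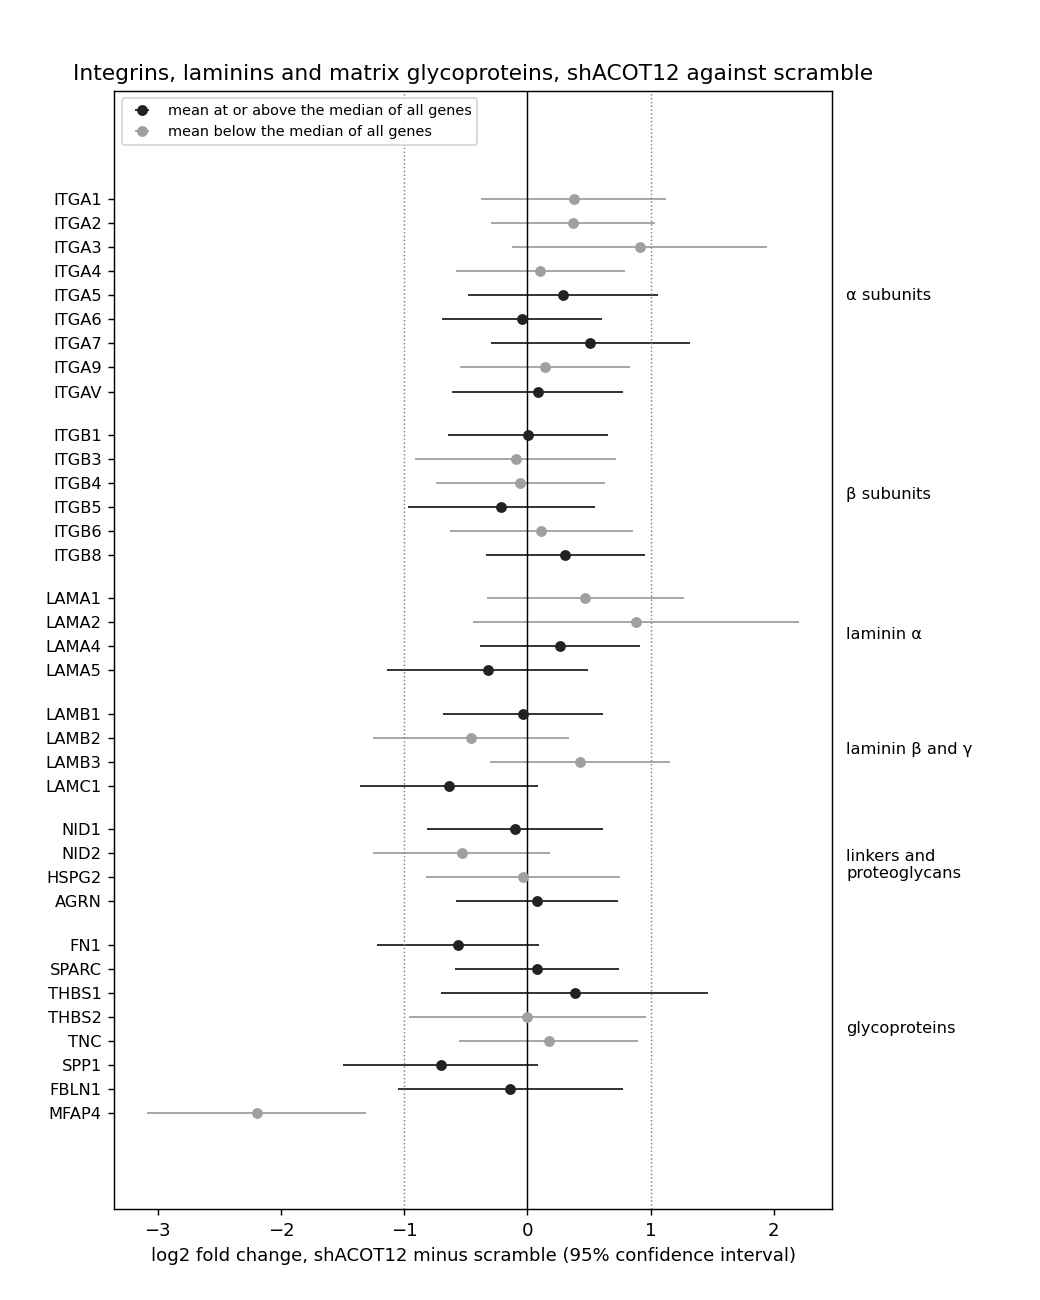
Log2 fold change, shACOT12 minus scramble (horizontal axis), with its 95% confidence interval from limma for the 35 genes by role; black marks genes with a mean at or above the median of all genes and grey the dimmer ones, and dotted lines mark a 2-fold difference. The interval of MFAP4 (-3.09 to -1.31) alone leaves out 0; those of LAMC1, FN1 and SPP1 end at 0.09.

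Of the 8 adhesive and matricellular glycoproteins, 0 passed the threshold, 3 had log2 fold changes above 0 and 5 below, and the groups did not overlap for 3 (FN1, SPP1 and MFAP4). All 3 had lower values in shACOT12 cells, a direction in which the groups did not overlap for 10.0% of all genes. FN1, which encodes fibronectin, was among the brightest probes of every array, with at least 98.6% of probes at or below it. It read 17.10 and 17.29 in scramble and 16.58 and 16.68 in shACOT12 cells. The groups were 0.43 apart at the nearest (means 17.20 ± 0.13 and 16.63 ± 0.07, SD, n = 2 each). The log2 fold change of FN1 was -0.57 (SE 0.28, 95% confidence interval -1.22 to 0.09, unadjusted p = 0.0804 and adjusted p = 1 by limma), which amounts to a level 1.48-fold lower. With each array left out in turn it ranged from -0.67 to -0.48, and under the other scalings and probe rules from -0.58 to -0.44. Its unadjusted p by limma depended on the setting. With all arrays it ran from 0.00707 with a prior following intensity to 0.163 after scaling to the 75th percentile. A far dimmer second probe of FN1 gave -0.31, with 8.34 and 8.87 in scramble and 8.24 and 8.33 in shACOT12 cells.

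SPP1 encodes osteopontin, a secreted phosphoglycoprotein that binds integrins and CD44 and is abundant in many liver cancers. It read 12.64 and 12.17 in scramble and 11.96 and 11.43 in shACOT12 cells. The groups did not overlap, but the replicates lay 0.47 apart within scramble and 0.53 within shACOT12 cells, against 0.20 between scramble replicate 2 and shACOT12 replicate 1. The log2 fold change was -0.70 (SE 0.33, 95% confidence interval -1.49 to 0.09, unadjusted p = 0.0737 and adjusted p = 1 by limma), and it ranged from -0.95 to -0.44 with each array left out in turn. Under the other settings with all arrays, the unadjusted p of SPP1 by limma ran from 0.0419 with the replicate number as a block to 0.126 with a floor at the 20th percentile.

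MFAP4, a microfibril-associated glycoprotein of elastic fibres, had the smallest p of the 35 genes and the one difference over 2-fold, a size that 1.59% of all genes reached. Its deposited intensities were 28.4 and 14.7 in scramble and -9.03 and 13.0 in shACOT12 cells, so a probe at the bottom of the scale was read on all 4 arrays. No array had more than 5.04% of its probes at or below it. After normalization it read 4.57 and 3.96 in scramble and 2.43 and 1.71 in shACOT12 cells, with a log2 fold change of -2.20 (SE 0.37, unadjusted p = 0.000718 and adjusted p = 1 by limma). The deposited values of scramble replicate 2 and shACOT12 replicate 2 differed by less than 2 intensity units, and with the floor raised to the 20th percentile all 4 arrays stood at the floor. The order of the shACOT12 arrays was turned by the normalization, because the value below 0 was first set to 1 together with other such probes.

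FBLN1, which encodes fibulin-1, a protein of elastic fibres and basement membranes that also circulates in blood plasma, was bright and varied between replicates. It read 14.87 and 15.82 in scramble and 15.05 and 15.36 in shACOT12 cells (log2 fold change -0.14, 95% confidence interval -1.05 to 0.77). THBS1, which encodes thrombospondin-1, an activator of latent TGF-beta, read 10.26 and 9.05 in scramble and 10.31 and 9.77 in shACOT12 cells. The arrays numbered 2 were the low ones for THBS1 and the high ones for FBLN1 in both groups, and the groups overlapped. THBS1 had a log2 fold change of 0.38 (SE 0.45), with -0.22 without scramble replicate 2. SPARC, a collagen-binding matricellular protein, read 11.03 and 10.87 in scramble and 10.92 and 11.13 in shACOT12 cells, with a log2 fold change of 0.08. TNC, which encodes tenascin-C, and THBS2, a second thrombospondin, were below the median of all genes, at 0.17 and 0.00, with overlapping groups. For TNC the overlap arose with normalization. Its deposited intensities, 220.2 and 219.8 in scramble and 248.3 and 251.9 in shACOT12 cells, did not overlap.

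**Figure D3:**
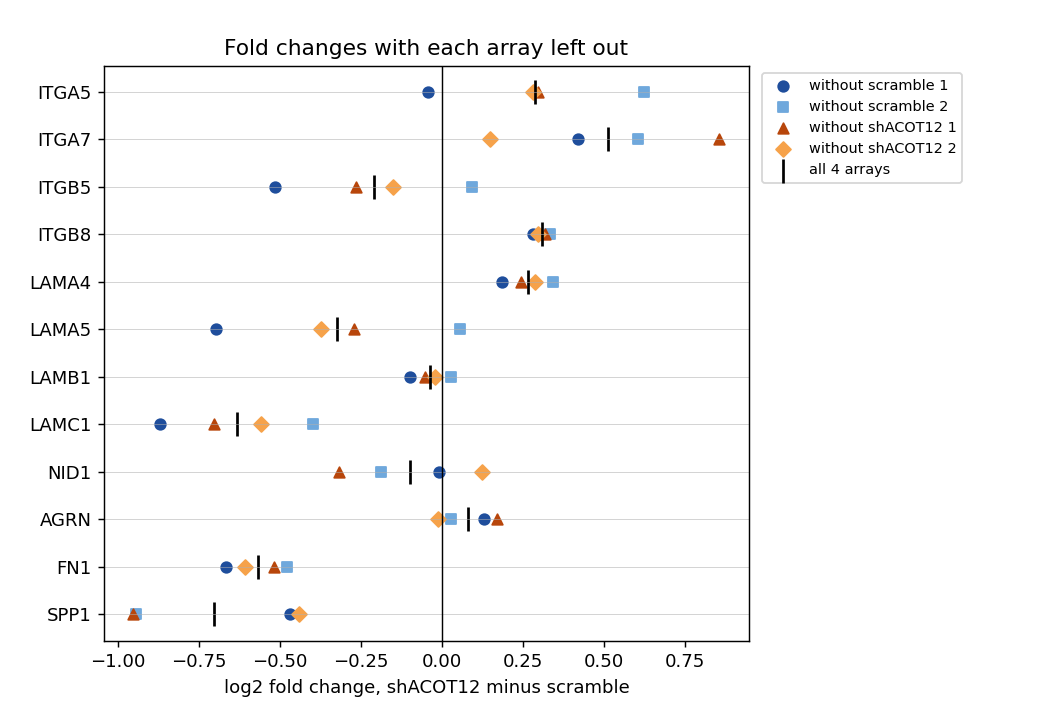
Log2 fold change, shACOT12 minus scramble (horizontal axis), with all 4 arrays (vertical bar) and with each array left out (coloured symbols) for 12 genes, the ones with the largest differences in each role among those at or above the median of all genes. FN1, LAMC1 and SPP1 stay below 0 and ITGA7, ITGB8 and LAMA4 above 0 whichever array is left out, while ITGA5, ITGB5, LAMA5, LAMB1, NID1 and AGRN cross 0.

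The genes were read by 50 probes, 1 each for 23 genes and several for 12. For 8 of these 12 (ITGA4, ITGA6, ITGAV, ITGB1, ITGB4, ITGB8, LAMA4 and FBLN1) the probes of a gene differed in sign. The probe with the highest mean stood for the gene, and the others were mostly dim. The largest gap was that of ITGB4, with -0.06 from its brighter probe and 0.58 from a probe at a mean of 5.99. The probes of FN1 were both below 0, and those of ITGA2 (0.37 and 0.27), LAMB3 (0.43 and 0.26) and TNC (0.17 and 0.32) both above it.

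**Figure D4:**
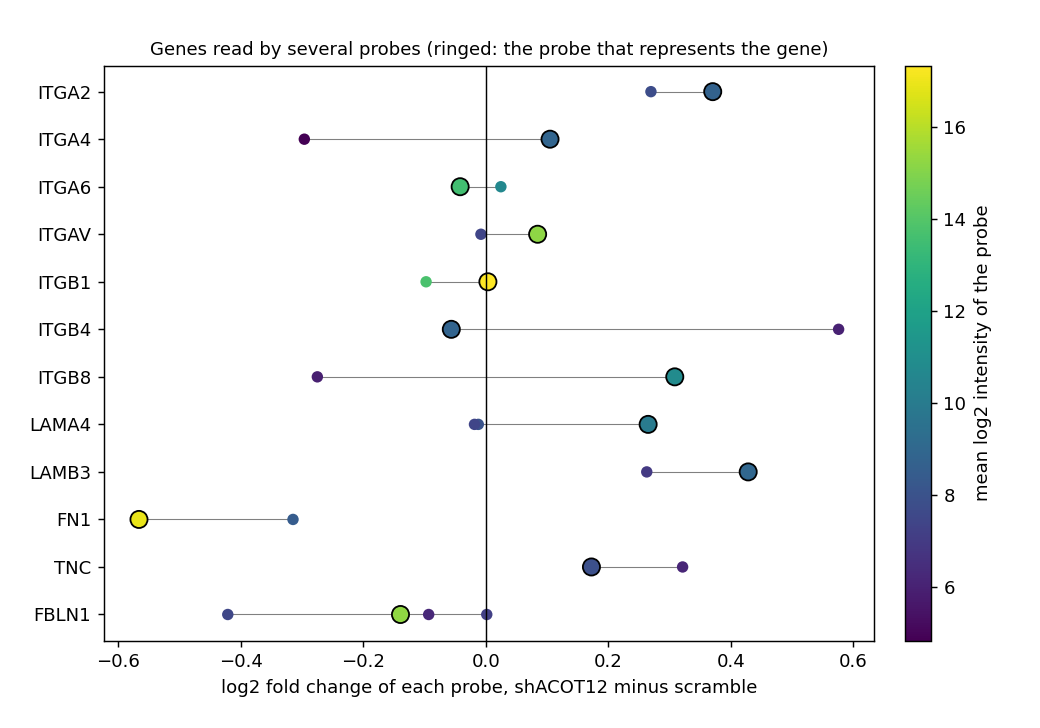
Log2 fold change of each probe, shACOT12 minus scramble (horizontal axis), for the 12 genes read by several probes (rows); colour gives the mean log2 intensity of the probe, and rings mark the probe that stands for the gene. The probes of ITGA4, ITGB4 and ITGB8 lie on opposite sides of 0, and those of FN1 (-0.57 and -0.31) on the same side.

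Other genes of cell-matrix adhesion were read from a list chosen by their roles, with earlier results of these data known. Of 54 measured, the groups did not overlap for 8 (14.8%), beside 21.5% of all genes; 0 passed the adjusted threshold, and 3 had an unadjusted p under 0.05 by limma, 2 higher (FBN1 and CD47) and 1 lower (SDC4) in shACOT12 cells, beside 0.985% and 0.775% of all genes in these directions. FBN1 encodes fibrillin-1, the core of the microfibrils. It read 12.14 and 12.09 in scramble and 13.21 and 12.92 in shACOT12 cells. Both shACOT12 values lay at least 0.78 above both scramble values (log2 fold change 0.95, SE 0.28, 95% confidence interval 0.28 to 1.62, unadjusted p = 0.0126 and adjusted p = 1 by limma), which amounts to 1.93-fold. With each array left out it ranged from 0.79 to 1.11, with an unadjusted p of 0.0179 to 0.0537, and the mean of its probes gave 0.82 (unadjusted p = 0.0556).

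SDC4 encodes syndecan-4, a proteoglycan that acts with integrins in fibronectin adhesion. It read 9.85 and 10.34 in scramble and 9.44 and 9.24 in shACOT12 cells (log2 fold change -0.75, SE 0.31, unadjusted p = 0.0443 and adjusted p = 1 by limma). CD47, a receptor for thrombospondin-1, was dimmer, with 6.64 and 7.36 in scramble and 8.01 and 7.71 in shACOT12 cells (log2 fold change 0.85, SE 0.34, unadjusted p = 0.043 and adjusted p = 1 by limma). Without scaling between arrays, the unadjusted p by limma was 0.0714 for SDC4 and 0.072 for CD47; after scaling to the 75th percentile it was 0.0704 and 0.0525, and with the raised floor 0.0597 and 0.103. The fold change of SDC4 was -0.51 without scramble replicate 2 (unadjusted p = 0.187), and that of CD47 was 0.49 without scramble replicate 1 (unadjusted p = 0.221). The 18 adaptors and signalling proteins of adhesions, such as talin, kindlins and vinculin, had log2 fold changes of -0.46 to 0.35 (median 0.08). Of these, 0 had an unadjusted p under 0.05 by limma, beside 1.76% of all genes. For 4 of them (22.2%) the groups did not overlap, beside 21.5% of all genes. The lowest fold change was that of PTK2, which encodes focal adhesion kinase, and its groups did not overlap. PTK2 read 14.18 and 14.30 in scramble and 13.70 and 13.85 in shACOT12 cells. TLN1 (talin-1) and VCL (vinculin), which tie integrins to actin, stood at 0.14 and 0.07, and ILK (integrin-linked kinase) at -0.11, all with overlapping groups. Of the 12 other integrin subunits and laminin chains measured, the groups did not overlap for 0, beside 21.5% of all genes, and their log2 fold changes ran from -0.45 to 0.32.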

How the data were processed

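The authors deposited intensities on a linear scale, 1 column per array; per the labels' protocols, RNA was amplified to aminoallyl RNA and coupled to Cy5. The sources used here name no scanner, background correction or normalization. Deposited intensities ran from -24.8 to 649381, and their log2 medians differed by 0.46 between arrays. Intensities under 1 were set to 1 (3 to 264 probes per array), converted to log2 and quantile normalized, which would hide a shift of most genes. Probes (28264, of which 25893 had 1 gene symbol) were named through the platform's annotation and RefSeq gene identifiers, and the probe with the highest mean stood for a gene, giving 19090 genes. No coordinates or probe sequences were used. The comparison used limma 3.58.1 under R 4.3.3 (functions lmFit and eBayes; residual degrees of freedom 2, prior 4.69), with Benjamini-Hochberg adjustment over all genes at 0.05. The fit was tested on simulated data with independent normal noise drawn from its own fitted prior and no replicate effect. Such data follow the model by construction, so that test cannot show whether the model suits these arrays. Arrays carry no counts, so their number limits the precision.

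The members and lists were chosen with earlier results of these data known. Values on every array with statistics were given for members with an unadjusted p under 0.05, members differing at least 2-fold, and the 2 members per role with the largest difference among those at or above the median of all genes; other array values were added after they were seen. Related genes were named at an unadjusted p under 0.05. PTK2, TLN1, VCL, ILK, FGA, FGB, FGG and NPNT did not meet that rule and were named after their values were seen. Alternatives were 3 other scalings, a floor at the 20th percentile, the mean of probes, leaving out the dimmest 30% of genes, a prior following intensity, the replicate number as a block, and leaving out each array.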

Additional observations from a re-analysis of the deposited data

How the results depend on the processing

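Leaving out the dimmest 30% of genes kept 26 of the 35 genes and removed MFAP4, so counts of members under that alternative are out of 26. Among the 35 genes, none with a value passed an adjusted p of 0.05 by limma under 11 of the 12 alternatives. The exception was the replicate number as a block, under which 1 gene passed, MFAP4 (adjusted p = 0.00748, log2 fold change -2.20); over its other alternatives with a value, the adjusted p of MFAP4 was 0.916 to 1. The replicate number was not stated to mark a shared culture or day. The deviations of the arrays numbered 1 from their group means correlated between the groups with r = 0.18 across all genes and 0.28 across the 9545 genes at or above the median, and genes are not independent replicates. The count of all genes past the threshold was 25 with the replicate block and 3 with a prior following intensity, against 1 in the reported fit, and 0 without scaling between arrays, after scaling to the 75th percentile or by cyclic loess, or with the floor at the 20th percentile; leaving out 1 array gave 0 each time. The count of members under an unadjusted p of 0.05 by limma was 0 without scaling between arrays, after scaling to the 75th percentile and with the dimmest 30% of genes left out, 3 with the raised floor, 3 with a prior following intensity and 4 with the block; without 1 array it was 1 to 4. The count of members whose groups did not overlap was 9 to 13 with all arrays and 22 to 27 without 1 array, where a group of 1 array overlaps less by construction. The median of the members ranged from 0.00 to 0.08 with all arrays and from -0.04 to 0.11 without 1 array, and 0 related genes passed under any alternative. The median of all genes moved to 0.04 at most. With the floor raised, ITGA3, ITGA9, LAMA1, LAMA2 and MFAP4 stood at the floor on every array and had no value.

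Signs turned with the scaling for ITGA9 (-0.11 on the deposited scale, -0.083 after 75th percentile scaling and -0.28 after cyclic loess) and LAMB1 (0.012 on the deposited scale and 0.041 after 75th percentile scaling), with the raised floor for THBS2 (0.11), and with the mean of probes for ITGA4 (-0.10), ITGB1 (-0.047) and ITGB4 (0.26). With 1 array left out, the log2 fold changes that crossed 0 ranged from -0.80 to 0.0079 for ACOT12, -0.031 to 0.24 for ITGA4, -0.043 to 0.63 for ITGA5, -0.10 to 0.021 for ITGA6, -0.060 to 0.37 for ITGA9, -0.12 to 0.29 for ITGAV, -0.060 to 0.087 for ITGB1, -0.48 to 0.27 for ITGB3, -0.20 to 0.087 for ITGB4, -0.51 to 0.094 for ITGB5, -0.13 to 0.35 for ITGB6, -0.0064 to 1.88 for LAMA2, -0.70 to 0.055 for LAMA5, -0.098 to 0.030 for LAMB1, -0.32 to 0.13 for NID1, -0.39 to 0.30 for HSPG2, -0.012 to 0.17 for AGRN, -0.032 to 0.18 for SPARC, -0.22 to 0.99 for THBS1, -0.54 to 0.51 for THBS2, -0.087 to 0.45 for TNC and -0.61 to 0.34 for FBLN1. The cause of these turns was not tested.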

Other observations

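The fibrinogen chains, plasma proteins that integrins also bind, differed by replicate number more than by group. FGB read 16.27 and 16.32 on the arrays numbered 1 of scramble and shACOT12 cells and 15.24 and 15.37 on the arrays numbered 2. FGG read 16.97 and 17.05 against 16.27 and 16.51, and FGA 14.00 and 14.06 against 13.57 and 13.44. NPNT, which encodes the integrin ligand nephronectin, read 10.11 and 10.15 against 9.12 and 9.46. Their log2 fold changes between the groups were 0.08, 0.16, -0.04 and 0.19.

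Scramble replicate 1 was the lowest of the 4 arrays for 14 of the 35 genes and the highest for 3; over all genes it was the lowest for 20.6% and the highest for 20.02%.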
